A study of Drosophila melanogaster with 3 samples.

Results

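The deep intron peaks described here are the 1322 of 9264 optimal Vrille peaks (14.3%, exact 95% interval 13.6 to 15) whose summits lay more than 5 kb from every annotated protein-coding start site, inside a protein-coding gene and outside every annotated exon. They were selected by position alone, in dm6 coordinates with the Ensembl annotation of that assembly, so their distance from start sites and their place in introns are the selection and not a result. The peaks come from chromatin immunoprecipitation and sequencing (ChIP-seq) on whole Drosophila melanogaster white prepupae, males and females pooled, of a transgenic line that stably carries vri with a C-terminal GFP; the antibody was directed at GFP. All 3 biological replicates belong to this 1 group of animals of one line and stage, with age given as unknown, and no group without the tagged protein was analysed here. In whole animals a peak can come from any tissue, and a weak peak can be many cells bound seldom or few cells bound often, which cannot be told apart. Signal below is the authors' peak signal in the replicate entry of highest signal that overlaps the peak, divided by the median of that replicate over all 9264 peaks, so that 1 is the median peak; values are mean ± SD with n = 3 replicates. The lists give no number of reads, so their depth is unknown.

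Vrille is a basic leucine zipper (bZIP) repressor that acts in the circadian clock together with its PAR-domain relative PDP1, which binds the same DNA element, the VP box, as an activator. vri is also required for growth, tracheal and hair development, and it is induced by the steroid hormone ecdysone, whose pulse at the end of larval life drives puparium formation. Introns of long fly genes, first introns above all, are known to carry enhancers, which can act on their host gene or on a neighbour.

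The next sequences are the 101 bases around the summits of the 8 highest deep intron peaks that hold a VP box or a C/EBP site, the 2 bZIP elements that results below turn on, on the arms from which sequence is shown. Highest here and below means by the authors' pooled signal at the summit, but the highest of a list of genes is by mean relative signal. A C/EBP summit in Hr4 and a VP box summit in E23 lie in the interval of a stronger summit and so take its relative signal. Both come later in the order by pooled signal. The windows are given 5′ to 3′ on the plus strand of dm6, as read from the RefSeq assembly, with the element in capitals. The VP box was searched as TTATGTAA, its reverse complement TTACATAA, or the palindrome TTACGTAA, and the C/EBP site as TTGCGTAA, TTACGCAA, TTGCGCAA or TTACGTAA, so the 2 searches share TTACGTAA.
CG32264 (chr3L:3776848-3776948): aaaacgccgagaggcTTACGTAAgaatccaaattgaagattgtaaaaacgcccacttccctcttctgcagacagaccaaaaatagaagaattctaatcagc
B4 (chr2L:13513501-13513601): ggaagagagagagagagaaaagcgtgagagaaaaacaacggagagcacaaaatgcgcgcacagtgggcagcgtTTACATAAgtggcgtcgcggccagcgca
Eip74EF (chr3L:17563856-17563956): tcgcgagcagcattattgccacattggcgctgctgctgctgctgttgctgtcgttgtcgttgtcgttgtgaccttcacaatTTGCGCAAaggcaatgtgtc
Bicra (chr3R:29076190-29076290): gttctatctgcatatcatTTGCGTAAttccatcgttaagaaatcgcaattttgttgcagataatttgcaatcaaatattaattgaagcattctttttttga
CG3655 (chrX:1129729-1129829): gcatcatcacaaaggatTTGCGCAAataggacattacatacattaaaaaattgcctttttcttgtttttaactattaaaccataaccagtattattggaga
drl (chr2L:19196819-19196919): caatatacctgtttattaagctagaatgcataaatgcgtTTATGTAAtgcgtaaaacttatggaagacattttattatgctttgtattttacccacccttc
cdi (chr3R:19060292-19060392): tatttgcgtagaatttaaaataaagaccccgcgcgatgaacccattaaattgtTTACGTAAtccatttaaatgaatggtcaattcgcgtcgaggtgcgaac
mamo (chrX:13980398-13980498): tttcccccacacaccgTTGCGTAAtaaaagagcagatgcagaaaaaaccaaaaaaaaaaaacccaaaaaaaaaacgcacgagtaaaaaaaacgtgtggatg
The windows at CG32264 and cdi carried the shared palindrome. B4 and drl carried the other VP box letters, and the remaining 4 held forms that only the C/EBP search admits.

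The VP box was found at 30 of the 1322 summits (2.27%, exact 95% interval 1.54 to 3.22) and at 7 windows of the same size 400 bp away on the 5′ side (0.530%), a ratio of 4.29. In the windows 400 bp to the 3′ side there were 13, and 0.809% of all 260183 windows that tile the eligible intron sequence held it. The excess at summits over the 5′ flank gave an adjusted p of 0.00100 (exact McNemar test, Benjamini-Hochberg over 21 motifs). It was smaller against other flanks. The ratio was 2.31 against the 3′ flank (adjusted p 0.0480) and 2.50 against a flank 800 bp away (0.0416), by the same exact test. Windows centred 100 to 1000 bp from the summit held between 5 and 19 boxes, so the 7 of the 5′ flank are near the low end. The call was lost in 2 smaller sets of peaks, by the same exact test. Among the 919 peaks found near the top of both replicates 2 and 3 the ratio was 3.40 and the adjusted p 0.0507. Among the 581 peaks in the stronger 50% they were 5.50 and 0.0674. Whether replicate 1 or the smaller number of peaks accounts for the first loss was not tested. Of the 30 boxes, 24 were TTATGTAA and 6 were TTACGTAA. The C/EBP site was at 24 summits and 4 of the 5′ flanks, with an adjusted p of 0.00100 in the same exact test, and 7 summits held both elements; its call was lost within 25 bp of the summit, beyond 10 kb, in the stronger 50% and against a flank 800 bp away. Together 47 peaks (3.56%) held either. A looser form that also admits TTATATAA was at 52 summits against 13 flanks (adjusted p 1.23e-05, exact McNemar test); all 30 VP boxes are counted in it, and in the stronger 50% its adjusted p was 0.0615.

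**Figure D1:**
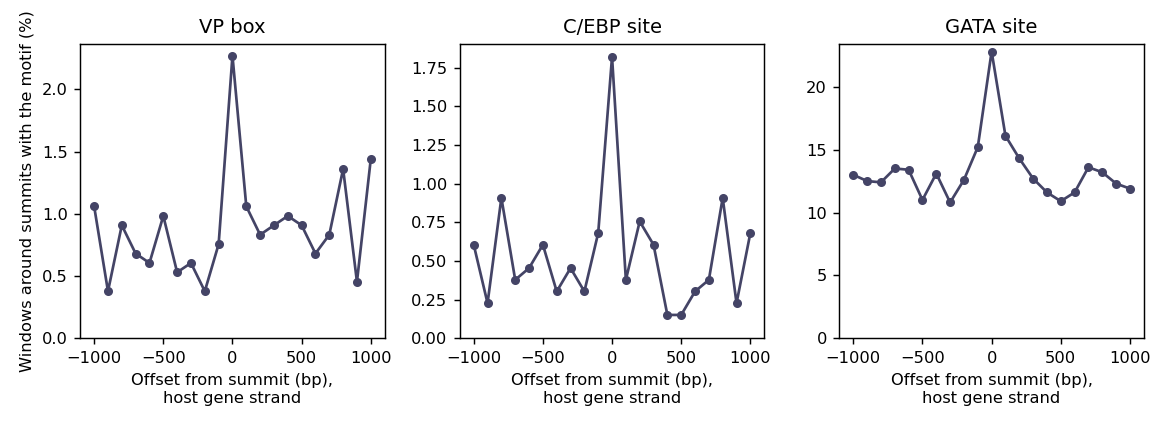
Share of the 1322 deep intron peaks with a VP box, a C/EBP site or a GATA site in a 101 bp window, in percent, plotted against the offset of the window from the summit in bp along the host gene's strand. In each panel the window on the summit is the highest point, 2.27% for the VP box, 1.82% for the C/EBP site and 22.8% for the GATA site.

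Peaks with a VP box were not among the higher ones as a group. Their median relative signal was 0.868, 0.714 and 0.885 in replicates 1, 2 and 3, against 0.885, 0.874 and 0.900 for the peaks without it, so it was lower in 3 of 3 replicates. For the C/EBP site the medians were 1.12, 1.14 and 0.962 with it and 0.880, 0.867 and 0.899 without it, higher in 3 of 3 replicates. With 3 replicates no exact sign test can go below 0.25, and none was run on these medians. Among the 330 peaks of highest signal 9 held the VP box, and among the 331 of lowest signal 8 did. Among the 20 highest peaks 1 held it, in Usp15-31, which encodes a ubiquitin-specific protease, with 4.27, 4.66 and 4.70 in the replicates (4.54 ± 0.241).

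The other 7 of the 8 peaks of highest pooled signal with a VP box lay in CG32264, sm, B4, mam, drl, cdi and CG12535. The peak in CG32264 had 2.60, 2.83 and 2.45 (2.63 ± 0.189), and that in sm, which encodes an RNA-binding protein, had 2.66, 3.43 and 2.03 (2.71 ± 0.699). The peak in B4 reached 2.30 ± 0.207, and that in mam, the gene of the Notch coactivator Mastermind, 1.95 ± 0.318. All 4 stood above the median peak in every replicate. Lower values were found in cdi, a kinase gene, with 1.71 ± 0.106, in drl, the gene of the Wnt5 receptor Derailed, with 1.66 ± 0.536, and in CG12535 with 1.55 ± 0.0534. In drl the replicates ranged from 1.08 to 2.15, and all 3 of these peaks too were above 1 in every replicate. A VP box summit in E23, ranked 735 by pooled signal, shares an interval with a summit ranked 21 and so has its relative signal of 4.23 ± 0.334; by the entry of the nearest summit its replicates ran from 0.518 to 4.81.

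The motif with the smallest p was the GATA site, the letters AGATAA or TGATAA on either strand, which is bound by GATA factors. It was at 302 summits (22.8%, exact 95% interval 20.6 to 25.2) and 173 of the 5′ flanks (13.1%), a ratio of 1.75 and an adjusted p of 2.15e-09 (exact McNemar test), and 11.6% of the 3′ flanks and 11.4% of the tiled windows held it. Only 44 peaks held more than 1 copy. Of the 21 motifs searched, 6 were more frequent at summits (28.6%) and 0 were less frequent, the same numbers as at an unadjusted p under 0.05. Besides the GATA site and the 3 bZIP forms these were GAGAG, read by GAGA factor, at 207 summits against 145 flanks (adjusted p 0.00203, exact McNemar test, but 0.25 beyond 10 kb) and the forkhead site TGTTTAC at 61 against 27 (adjusted p 0.00133, same exact test), whose call was also lost within 25 bp, beyond 10 kb and against the farther flank. GAGAG was not highest on the summit itself: 252 windows 100 bp to the 5′ side held it (19.1%) and 230 windows 100 bp to the 3′ side (17.4%), against 15.7% at the summit. Together the 6 were found at 562 peaks (42.5%). The CLOCK and CYCLE E box CACGTG was at 8 summits and 14 flanks, and the inverted repeat of EcR and USP was at 0 summits and 0 flanks. Base composition moved with these counts: mean GC was 38.4% at summits, 41.1% and 41.4% in the 5′ and 3′ flanks and 40.5% in the tiled windows, and its part in the motif counts was not tested.

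The highest GATA peaks are shown because this motif was the most frequent of the 6. They are the windows of 3 of the 4 highest peaks with the motif on the arms from which sequence is shown, chosen after their values were seen, with the plus strand of dm6 and the GATA site in capitals; the one left out is a second peak of tkv.
mub (chr3L:21892370-21892470): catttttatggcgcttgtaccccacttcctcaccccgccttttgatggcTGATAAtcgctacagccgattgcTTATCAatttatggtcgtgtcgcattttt
tkv (chr2L:5254267-5254367): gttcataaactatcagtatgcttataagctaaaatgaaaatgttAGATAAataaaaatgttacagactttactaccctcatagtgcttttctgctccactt
CG46467 (chr3R:9917557-9917657): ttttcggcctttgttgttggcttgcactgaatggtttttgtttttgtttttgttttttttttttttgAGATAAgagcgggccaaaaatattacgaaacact
mub, which encodes an RNA-binding protein, held 2 copies, and its peak had 8.11, 8.15 and 7.75 in the replicates (8.01 ± 0.221). The peak in tkv, the gene of the Dpp receptor Thickveins, had 5.64, 4.29 and 6.29 (5.41 ± 1.02), and that in CG46467 had 4.26, 5.41 and 3.69 (4.45 ± 0.872). As a group the 302 peaks with the motif had a median of 0.900 ± 0.0150 against 0.875 ± 0.0292 for the rest, a difference within the spread and higher in 2 of 3 replicates.

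Without a motif in mind, 1970 words of 6 bases that occurred in at least 20 windows were compared with the 5′ flanks. Of these 38 were more frequent at summits (1.93%) and 14 less frequent (0.711%) at an adjusted p under 0.05 in the exact McNemar test. The leading words were TGATAA, at 191 summits against 98 flanks (adjusted p 2.55e-05, exact), and CTGATA, at 107 against 42 (4.04e-05, exact). GTAATA followed with 106 against 48 and CTTATC with 130 against 66, both with an adjusted p of 0.00174 in the exact test. TGATAA and CTGATA, like the complement of CTTATC, are stretches of the GATA site with its neighbouring bases. ACAGTG, at 93 against 41, matched none of the 21 motifs. Against the 3′ flanks 34 words were more frequent, and 19 words were more frequent against both flanks, all of the 5 just named among them. Most words that were less frequent at summits were rich in G and C, led by GGCCAA at 69 summits against 126 flanks.

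Deep intron summits differed from promoter summits, those within 1 kb of a start site, in 3 of the 21 motifs by Fisher's exact test adjusted over 63 comparisons. The GATA site was at 22.8% against 18.5% of 4552 promoter summits (odds ratio 1.30, adjusted p 0.0125, exact). The E box CAGCTG was at 4.24% against 6.99% (odds ratio 0.589, adjusted p 0.00630, exact; 0.0538 within 25 bp). TATCGATA, the site of the replication-related factor DREF at housekeeping promoters, was at 0 of 1322 deep intron summits (exact 95% upper bound 0.279%) and at 1.52% of promoter summits (adjusted p 2.25e-06, exact). The GATA site was also more frequent than at intergenic summits beyond 5 kb (16.3%, odds ratio 1.52, adjusted p 0.0209, exact), but without replicate 1 that adjusted p was 0.0822 and without replicate 3 it was 0.195, and the call was also lost within 25 bp (0.0824) and in the stronger 50% (0.737), by the same exact test. At 25 bp and at 100 bp to each side of the summit the difference from promoters had adjusted p of 0.118 and 0.141 by the same exact test. It was at 26.8% of intron summits between 1 and 5 kb (adjusted p 0.110, exact). The VP box was at 2.07% of promoter summits (odds ratio 1.10, adjusted p 1.00, exact) and at 3.15% of the nearer intron summits (odds ratio 0.714, adjusted p 0.562, exact), so no difference was detected in either comparison. Mean GC was 41.9% at promoter summits, 39.9% at nearer intron summits and 35.9% at intergenic summits beyond 5 kb, beside 38.4% here.

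Deep intron sequence that could hold such a peak amounted to 27.3 Mb, 20.4% of the 6 chromosome arms, and held 48.4 peaks per Mb. Promoters held 168 per Mb, introns between 1 and 5 kb from a start site 113, and intergenic sequence beyond 5 kb 26.1; over the 6 arms there were 69.2. Counted in the 9264 highest entries of each replicate instead, the deep intron density was 46.1 ± 2.17 per Mb (n = 3), below that of the nearer introns (112 ± 3.50) and above that of distant intergenic sequence (24.6 ± 2.97). The ranges of the replicates did not overlap between these classes. Within the deep introns the density was 74.4 per Mb between 5 and 10 kb from a start site (731 peaks), 52.6 between 10 and 20 kb (422 peaks), 32.1 between 20 and 50 kb (160 peaks) and 2.00 beyond 50 kb (9 peaks). The sequence beyond 50 kb amounted to 4.50 Mb. Very long genes without a peak, led by Myo81F with 1790 kb eligible, count in these densities, and their part in the fall was not tested. The farthest peak lay 86624 bp from any start site, in hth, the homeobox gene homothorax. Chromosome 4 held 0 peaks in 0.198 Mb, and the other arms between 39.2 per Mb (3R) and 63.6 per Mb (2L). Of the 8.22 Mb eligible on 3R, 1790 kb lay in Myo81F and 627 kb in Pzl, neither of which held a peak.

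**Figure D2:**
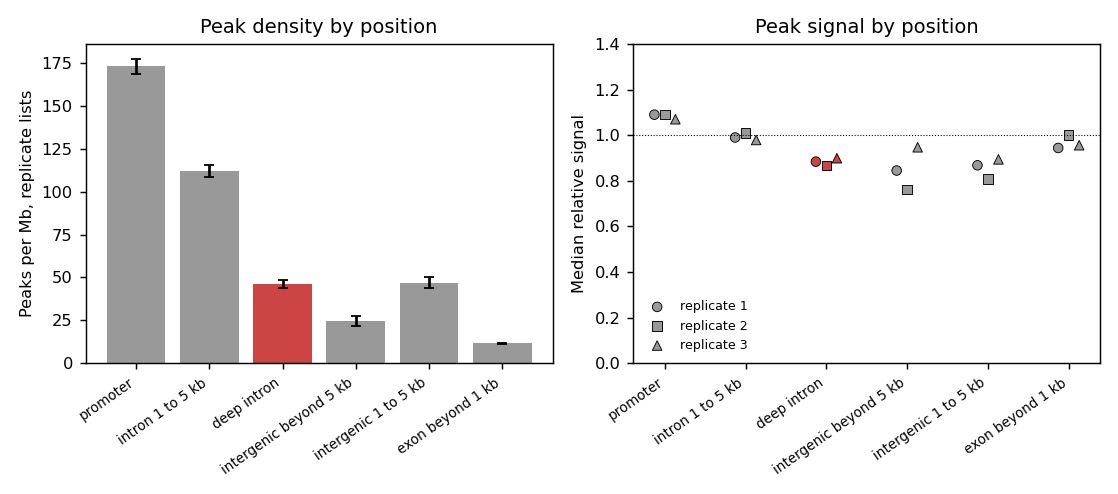
Left, density of peaks per Mb in the 9264 highest entries of each replicate list by position, as mean with SD over the 3 replicates. Right, median relative signal of the optimal peaks of each position in each replicate, with the dotted line at the median of all peaks; the deep intron peaks, in red, sit at 0.868 to 0.899, below the promoter and nearer intron peaks of the same replicate.

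Deep intron peaks overlapped high entries of the replicates less often than promoter peaks did. The optimal list was itself derived from these replicates, so such overlap is partly built in and is no independent finding of the peaks. An entry among the 9264 highest of a replicate overlapped 85.4%, 78.8% and 87.0% of deep intron peaks in replicates 1, 2 and 3 (83.7% ± 4.33). For promoter peaks it was 91.3%, 87.2% and 88.8% (89.1% ± 2.07). All 3 lists held 845 of the deep intron peaks (63.9%), against 74.3% of promoter peaks. Across peaks, the Spearman correlation of relative signal was 0.765 between replicates 1 and 2 (1310 peaks), 0.769 between 1 and 3 (1317 peaks) and 0.675 between 2 and 3 (1309 peaks); the peaks of a pair share their libraries and are not independent.

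Their signal was lower than that of peaks near genes' starts. The median relative signal was 0.884, 0.868 and 0.899 in the 3 replicates (0.884 ± 0.0156), against 1.08 ± 0.0124 for promoter peaks. The log2 ratio of the medians was −0.292 ± 0.042, lower in 3 of 3 replicates, with an exact sign-flip permutation p of 0.25, the smallest that 3 replicates allow. Against introns between 1 and 5 kb it was −0.166 ± 0.045, also lower in 3 of 3 (exact p 0.25). Against intergenic peaks beyond 5 kb it was 0.059 ± 0.132 (exact p 0.750), within the spread. The deep intron share of the optimal list was 11.0% among the 927 entries of highest pooled signal, 17.0% among the 926 of lowest and 21.8% among pooled entries under the authors' threshold. Of 5851 pooled entries in deep introns 22.6% passed the threshold, against 43.4% of 10490 at promoters.

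**Figure D3:**
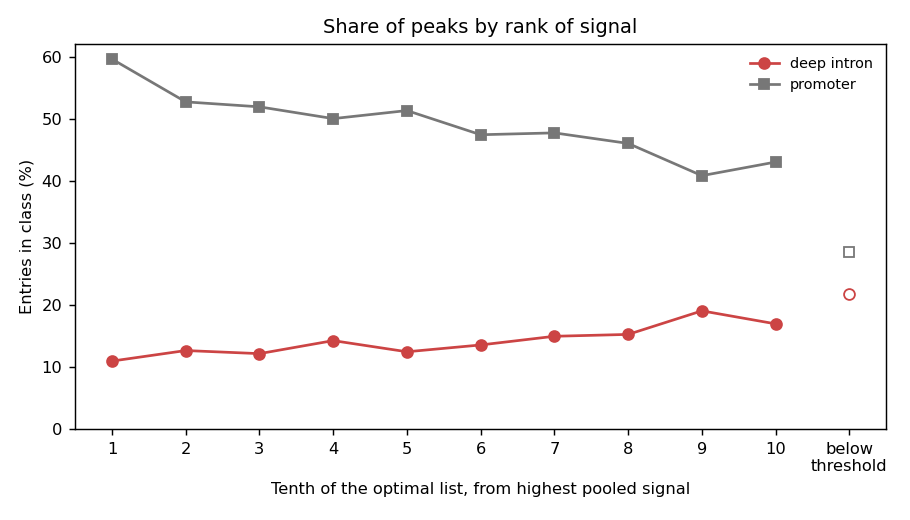
Share of entries in deep introns (red circles) and at promoters (grey squares), in percent, in 10 successive bins of the optimal list from the highest pooled signal to the lowest, and among the pooled entries below the authors' threshold (open symbols). The deep intron share goes from 11.0% in the first bin to 21.8% below the threshold, and the promoter share from 59.7% to 28.6%.

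The deep intron peak of highest pooled signal lay in the first intron of CG32486, 5703 bp from the nearest start site, which is that of its neighbour CG16753 (3L, 3060462 to 3061197). It had 10.5, 9.20 and 9.75 in the replicates (9.81 ± 0.642) and ranked 22 in the optimal list. The next was in the first intron of Eip75B, the gene of the heme-binding nuclear receptor E75 (3L, 18011511 to 18012590), with 7.72, 7.58 and 9.15 (8.15 ± 0.870). After mub came Mef2, the gene of the muscle differentiation factor MEF2, with 6.39, 5.99 and 8.94 (7.11 ± 1.60), where replicate 3 stood apart from the others. CG14073 had 6.97 ± 0.270 and CG45088, whose peak also lies in CG6191, 6.60 ± 1.57. Tis11, the gene of an RNA-binding protein that promotes decay of mRNA with AU-rich elements, had 6.03, 6.90 and 6.28 (6.40 ± 0.447). Its peak lay 16598 bp from a start site, the farthest of the 20 highest. Hr4, a nuclear receptor gene of the ecdysone cascade, had 6.08 ± 0.801 at one peak and 5.11 ± 0.117 at another.

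The rest of the 20 highest had between 4.34 and 5.41. They lay in tkv (at 2 peaks), spin, a lysosomal transporter gene, Raf, the kinase of the Ras pathway, Su(Tpl), an elongation factor gene that overlaps the chromatin remodeller gene Mi-2 (at 2 peaks), Smr, a nuclear receptor corepressor gene, ftz-f1, baz, the gene of the polarity protein Bazooka, Usp15-31 and Amph, the gene of Amphiphysin. The lowest replicate value of these 20 peaks was 3.65, in baz, whereas the median over all 1322 peaks was 0.868. The lowest of all had 0.422, 551 were above 1 and 24 above 5. Where several summits share an interval, or where their intervals meet the same replicate entry, they have the same relative signal; the 1322 summits lay in 1227 separate regions, of which 92 held 2 or 3 summits.

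**Figure D4:**
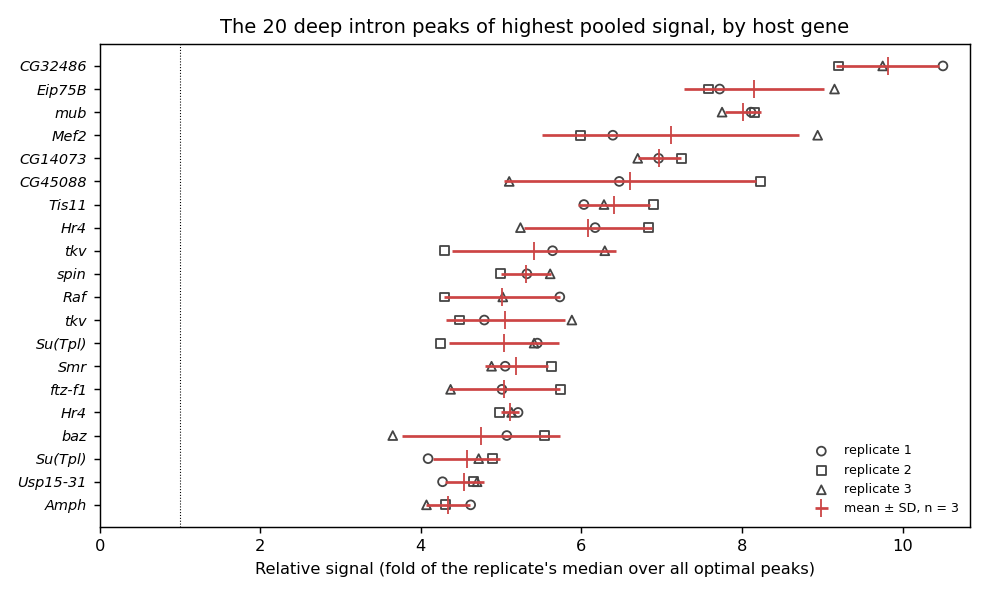
Relative signal of the 20 deep intron peaks of highest pooled signal, by host gene, on the horizontal axis in multiples of the replicate's median peak. Open symbols are the 3 replicates and the red bars their mean ± SD; all 60 values lie to the right of the dotted line at 1, from 3.65 in baz to 10.5 in CG32486.

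Just inside the 5 kb limit were summits in cv-c at 5004 bp with 2.23 ± 0.533, in ush at 5006 bp with 2.01 ± 0.614 and in Klp98A at 5013 bp with 0.926 ± 0.114. Just outside the limit were summits in lbk at 4996 bp with 0.928 ± 0.205, in ct at 4995 bp with 0.506 ± 0.116 and in p130CAS at 4992 bp with 0.819 ± 0.183.

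Within their genes, 701 of the peaks (53.0%) lay in a first intron of a host transcript, which makes up 31.2% of the eligible sequence; the densities were 82.3 per Mb in first introns and 33.0 in later ones. Very long genes without a peak count in these densities too, and their part in the difference was not tested. If the longest transcript of the host alone is counted, 33.6% were in its first intron. No share of the eligible sequence is given for that count, so whether it is an excess cannot be told. In 403 peaks (30.5%) the summit came before the coding sequence of every host transcript that spans it. For the 58 peaks in 2 or more hosts only transcripts of the shortest host were counted. The median intron that held a peak was 16950 bp long, and the median summit was 4547 bp from an intron end. The nearest start site belonged to the host for 924 peaks (69.9%) and to another gene for the rest. A start site of a non-coding RNA lay within 1 kb of 27 peaks (2.04%), and 1.49% of the eligible sequence is that close to one.

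The peaks lay in 468 of the 1830 genes with eligible sequence (25.6%). Of these host genes 188 held 1 peak, 101 held 2, 115 held 3 to 5 and 64 held 6 or more. Genes with 50 kb or more eligible numbered 113, of which 59 held a peak and 54 held none. The longest without one were Myo81F with 1790 kb, Pzl with 627 kb and lovit with 398 kb. Counted only over eligible sequence within 50 kb of any entry of the pooled list, the density was 60.5 in place of 48.4 per Mb.

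The most peaks, 20, lay in tai, which encodes the p160 coactivator Taiman of the ecdysone receptor (2L, 9166778 to 9250211). They had relative signals from 0.530 to 2.90 with a median of 1.15, 14 were in the top lists of all 3 replicates, and they lay 6.32 to 37.3 kb from a start site. Eip75B held 19, from 0.570 to 8.15 with a median of 1.16, and 15 of them were in first introns of its transcripts, of which the annotation gives 7 start sites. With these 19 the gene held 46 optimal peaks in all. Tet, which encodes a methylcytosine dioxygenase family member, also held 19, from 0.548 to 1.89. The others among the 10 genes with most were the overlapping pair CG46467 and Glut4EF with the same 15, sbb with 15, jing with 15, Eip74EF with 14, Tis11 with 13 and hth with 13. These 10 genes held 143 peaks (10.8%). By peaks per 100 kb, among genes with at least 20 kb eligible, the densest were Eip75B (48.7), sbb, a transcriptional corepressor gene also called scribbler (42.2), tai (37.6), gpp, the gene of the histone H3 methyltransferase Dot1 in flies (37.0), and ftz-f1 (37.0). hth, with 13 peaks in 107 kb, had 12.1 per 100 kb and none above 1.23.

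Genes of an ecdysone response list held these peaks more often than genes with eligible sequence at large. This list, like the others, was chosen with earlier results of these data known, so its share is no independent support. Of the 22 genes of an ecdysone list with eligible sequence 18 held a peak (81.8%), against 25.6% of all genes with eligible sequence, and the list's sequence held 231 peaks per Mb against 48.4. Its genes had a median of 20.6 kb eligible, and of all 279 genes with 20 to 50 kb 45.9% held a peak. Their 117 peaks had medians of 1.10, 1.14 and 1.04 in the replicates (1.09 ± 0.0517), and 77.8% were in all 3 top lists, against 63.9% of all 1322. The VP box was at 2 of the 117 (1.71%), the GATA site at 18 (15.4%) and GAGAG at 27 (23.1%), beside 2.27%, 22.8% and 15.7% of all 1322. Of the 117 peaks 20 lay in tai, 19 in Eip75B, 14 in Eip74EF and 11 in EcR. None of these list values was tested.

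Among receptors of the cascade, EcR, which encodes the ecdysone receptor itself, held 11 peaks from 0.687 to 1.74. The highest by mean relative signal had 2.12, 1.66 and 1.43 (1.74 ± 0.349). The one of highest pooled signal had 1.77, 1.74 and 1.66 (1.72 ± 0.0560), so these 2 do not differ beyond their spread. Hr4 held 7 peaks from 0.645 to 6.08. Its peaks at 1948148 and 1951901 on X had 6.17, 6.83 and 5.24, and 5.21, 4.98 and 5.13. ftz-f1, the prepupal nuclear receptor gene that is expressed as ecdysone falls, held 8 peaks in 7 distinct intervals. The median over the 8 summits was 2.54, in which summits that share an interval count the same signal again, and no median over intervals was taken. The 3 highest peaks of ftz-f1 by pooled signal had 5.04 ± 0.687, 4.08 ± 0.379 and 3.56 ± 0.493. They lay 5588 to 9119 bp from a start site, and their replicate ranges overlapped between neighbours. Hr3, whose product activates ftz-f1, held 2 peaks with up to 2.10, Hr38 2 with up to 1.22, Hr39 3 with up to 0.890 and Eip78C 1 with 0.886.

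The early genes of the ecdysone puffs were unlike each other in their deep intron peaks. Eip75B and Eip74EF, which encodes an ETS factor, held 19 peaks in 39.0 kb and 14 in 38.5 kb. br, the gene of the Broad factors that specify the pupal stage, held 1 in 36.6 kb, and Eip93F, a pupal-to-adult specifier gene, held 2 in 38.8 kb. Counting optimal peaks at all positions in the gene, br held 10, with 9 start sites, and Eip93F 7, beside 46 in Eip75B and 19 in Eip74EF. The deep intron peak of br had 0.533, 0.468 and 0.436 (0.479 ± 0.0496), below the median peak in every replicate. The highest peak of Eip74EF had 1.94 ± 0.331; it is the one shown above with the letters TTGCGCAA. Its 14 peaks had a median of 1.16 and 13 of them were in all 3 top lists. In Eip93F the 2 peaks had 0.901 ± 0.309 and 0.680 ± 0.199.

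Of the other ecdysone genes, Smr held 9 peaks with up to 5.19, and E23, whose ABC transporter product limits the ecdysone response, held 6 from 1.12 to 4.23. Oatp74D, which encodes the ecdysone importer, held 4 with up to 1.39, mld, a regulator of ecdysone synthesis, 5 with up to 1.25, Eip63E 2 with up to 0.741 and ImpE1 1 with 0.557. Eip63F-1, crol, hid and DopEcR held none, in 2.14 to 9.73 kb eligible.

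Of 20 clock genes 8 had eligible sequence and 3 held a peak, sgg, cwo and nmo, 9 peaks in all and 91.9 per Mb; the share of genes, 37.5%, is beside 25.6% of all genes, and 3 of 8 is too few to read against it. sgg, the gene of the GSK3 kinase Shaggy that phosphorylates Timeless, had 3.57, 4.72 and 3.49 at its higher peak (3.93 ± 0.684) and 1.67 ± 0.518 at its lower one, 5985 and 5071 bp from a start site. cwo, which encodes the bHLH repressor Clockwork orange, had 1.67, 2.35 and 1.73 (1.92 ± 0.378) at 1 of 2 summits whose intervals overlap. The other cwo summit held the CLOCK and CYCLE E box. nmo, a kinase gene, held 5 peaks from 0.671 to 1.80. vri itself had 0.702 kb eligible and Pdp1 20.2 kb, and neither held a deep intron peak. Nor did tim, CkIIbeta or Pdfr. Among bZIP factor genes 3 of 7 held peaks, again too few to read against 25.6%: CrebA 5 with up to 2.80 ± 0.277, REPTOR 3 with up to 1.65 ± 0.226 and Atf3 3 with up to 1.43 ± 0.186, the last at a summit with a C/EBP site; vri, Pdp1, Atf6 and cnc held none.

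Other lists fell on both sides of the density of all eligible sequence, 48.4 per Mb, and of the 25.6% of all genes that held a peak. That share was larger for genes with more eligible sequence, from 16.8% at 1 to 5 kb through 35.3% at 5 to 20 kb to 52.2% at 50 kb or more. Density went the other way, with 88.9 per Mb at 1 to 5 kb, 79.1 at 5 to 20 kb, 56.0 at 20 to 50 kb and 25.5 at 50 kb or more. The 48.4 per Mb is not matched to the length of a list's genes. Of 23 genes of Dpp, Wnt, Hedgehog and Notch signalling 16 held a peak (69.6%), 135 per Mb, with the highest in tkv. Of 17 genes of EGF receptor, FGF, Ras and Hippo signalling 11 did (64.7%), 122 per Mb, with the highest, 3.16, in ex, the upstream Hippo gene expanded. That list names Raf by an older symbol absent from the annotation; with older symbols matched, 12 of 19 genes held a peak (63.2%), 139 per Mb, and the highest was the 5.01 of Raf. Of 6 genes of insulin, TOR and nutrient signalling 4 did (66.7%), 274 per Mb, and without Mnt 3 of 5 and 156 per Mb. InR, the insulin receptor gene, had 2.27, 2.14 and 1.68 at its highest peak (2.03 ± 0.315), and Mnt, which encodes a bHLH antagonist of Myc and was singled out after its count was seen, held 12 peaks in 10.9 kb. Nuclear receptor genes held peaks in 9 of 11 (81.8%), 262 per Mb, and 8 of those 9 are also ecdysone genes named above; the other is knrl. Of 25 zinc finger, T-box and other patterning genes 12 held a peak (48.0%), with the highest in Mef2, and of 36 homeobox genes 12 did (33.3%), 63.3 per Mb and near the values of all genes, with the highest, 2.29, in Antp.

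The lowest densities were found in lists of nerve-cell genes. Of 49 genes of amine and neuropeptide receptors, with a median of 8.45 kb eligible, 1 held a peak (2.04%), 5-HT7, a serotonin receptor gene, with 0.932, and the list had 1.72 peaks per Mb. Of 24 genes of DIP and Dpr adhesion proteins 2 did (8.33%, 2.77 per Mb, the highest in DIP-alpha with 1.56). Of 36 ion channel genes 4 did (11.1%, 9.10 per Mb, the highest in Ca-beta with 1.28), and of 43 genes of axon guidance and synaptic adhesion 10 did (23.3%, 23.9 per Mb, the highest in kirre with 2.44). The last share was near the 25.6% of all genes but below the 45.9% of genes with 20 to 50 kb eligible. The density of the axon guidance list, 23.9 per Mb, was near the 25.5 of all genes with 50 kb or more. It was below the 56.0 of genes with 20 to 50 kb. Of its sequence 211 kb lay in kirre and 158 kb in Ten-a. Median eligible length was 27.0 kb in the axon guidance list, 20.6 kb for DIP and Dpr genes and 15.9 kb for ion channel genes. A list of RNA-binding and splicing regulators had 26.7 per Mb, with 12 of 23 genes holding a peak (52.2%) and mub the highest. Its genes had a median of 50.7 kb eligible, and all genes with 50 kb or more had 25.5 per Mb and 52.2% with a peak. The list also held mamo and rg, which are not RNA-binding genes, and not Tis11. Without mamo and rg 10 of 21 genes held a peak, and with Tis11 in their place the density was 35.8 per Mb. A list of planar polarity, hair and tracheal genes had 27.8 per Mb with 4 of 13 (30.8%), where the highest, in the FGF gene bnl, had 0.563. Actin and muscle genes had 56.9 per Mb, with 10 of 28 (35.7%) and the highest, 1.92, in Tm1. In lipid storage genes 1 of 6 (16.7%) held a peak, in the lipase gene bmm with 0.862, and no ribosomal protein gene had eligible sequence. The counts of a list do not separate its genes' function from their length, the tissue that expresses them or the state of their chromatin, and none of these was tested.

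**Figure D5:**
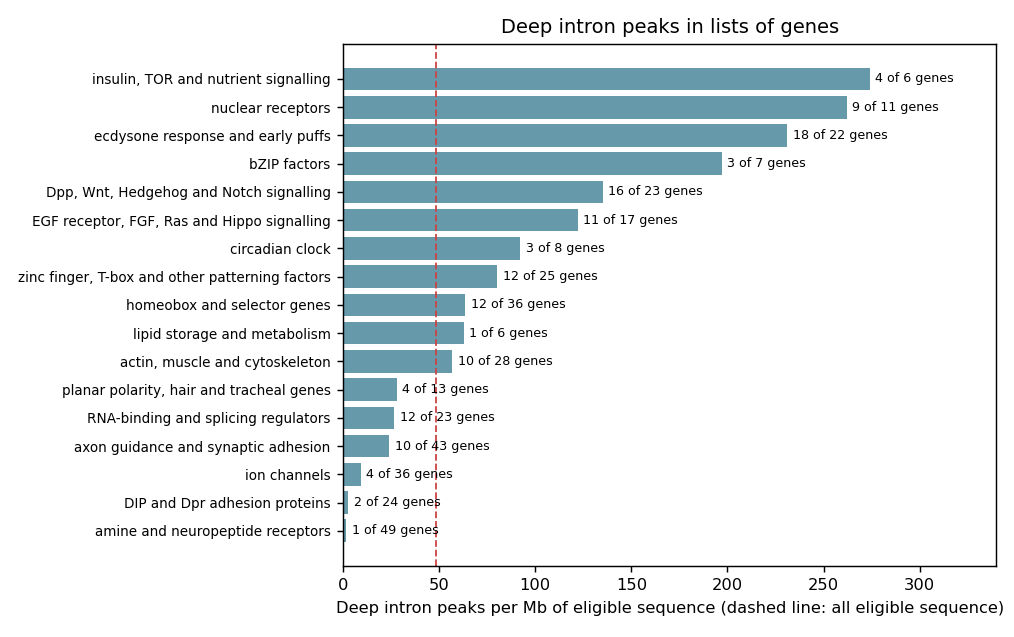
Deep intron peaks per Mb of eligible sequence in each list of genes, with the number of genes that hold a peak of those with eligible sequence, and a dashed line at the 48.4 per Mb of all eligible sequence. The bars run from 1.72 for amine and neuropeptide receptors to 274 for insulin, TOR and nutrient signalling, where 12 of the 24 peaks lie in Mnt.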

How the data were processed

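ChIP-seq peak lists of 3 biological replicates of white prepupae with GFP-tagged vri were used in dm6. Per the depositors' note files, the replicate and pooled lists hold peaks and background made from the alignments together with 1 further file, and the optimal list was derived from them by the irreproducible discovery rate. Neither the aligner nor the peak caller nor the threshold is given in the sources used here. The deposited signal column is the authors' value for each peak and is not scaled between libraries. The lists hold no counts, so depth is unknown; intervals on shares are exact binomial, cover counting error only and treat peaks as independent, which neighbours are not. The dm3 lists were not used.

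Start sites (19607 of 13945 protein-coding genes), exons and genes came from Ensembl release 115 and bases from the RefSeq assembly of the same build, on 6 arms. Overlap meant at least 1 bp. Motifs and words of 6 bases were searched on both strands within 50 bp of the summit and in windows 400 bp away. Exact McNemar tests compared these, Fisher's exact tests compared classes of peaks, and p-values were adjusted by the Benjamini-Hochberg method. They measure peaks within 1 group, not differences between animals. The tests were checked on windows with planted sites. Genes named are the hosts of the 20 highest peaks, the 10 with most, the 5 densest, all clock, ecdysone and bZIP hosts, the highest of each other list and the 8 highest VP box peaks. Members and the 18 gene lists were chosen with earlier results of these data known, and list symbols absent from the annotation were left out. Alternatives changed distances, windows, flanks, strength, overlap and replicates. Computation used pandas 2.3.3, SciPy 1.17.1, NumPy 2.4.6 and matplotlib 3.10.9 under Python 3.11.15.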

Additional observations from a re-analysis of the deposited data

How the results depend on the processing

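Of 123 alternatives, 95 left the call as reported or the value within set limits, 10 moved a value, 18 ended a call and none turned a called direction around. Direction did change among the 95 where nothing was called. The odds ratio of the VP box to promoters was 1.10 as reported and 0.787 in the stronger 50%. The number of deep intron peaks was 591 beyond 10 kb and 581 in the stronger 50% of the optimal list, and 919 to 1001 when the peaks in the top lists of the remaining replicates were counted after leaving out each. Density was 21.3 per Mb in the stronger 50% and 60.5 within 50 kb of a pooled entry, a limit chosen after the data were seen; over the replicate lists it was 44.9 to 46.8 without each replicate. The share of genes with a peak was 15.3% for at least 2 peaks, 32.8% for genes with 1 kb or more eligible and 16.4% in the stronger 50%. Median relative signal was 0.903 with the entry of the nearest summit and 0.876 to 0.892 without each replicate, detection 82.1% to 86.2%, and the log2 ratio to promoters −0.314 to −0.272. The first intron share was 33.6% by the longest transcript. The cause of these moves, other than fewer peaks, was not tested.

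The ratio of the VP box at summits to 5′ flanks was 5.50 in the stronger 50% (adjusted p 0.0674, with 581 peaks) and 3.40 to 5.50 without each replicate, of which replicate 1 ended the call. The odds ratio to promoters was 0.844 to 1.09 without each replicate and was past the threshold in none of the alternatives run. The GATA site at summits kept its call in all alternatives run, also with 1 summit per region, with ratios of 1.76 to 1.88 without each replicate. Its odds ratio to promoters was 1.29 within 25 bp, 1.17 within 100 bp, and 1.36 to 1.38 without each replicate. With words of 8 bases 7 passed. The C/EBP and forkhead sites lost their calls within 25 bp (adjusted p 0.874 each), against a flank 800 bp away (0.196 and 0.0774) and beyond 10 kb (0.25 and 0.0720), by the exact McNemar test. No paired analysis was possible because there is 1 group, so replicate numbers pair no samples across groups; the pairing used was of summits with their own flanks and of classes within a replicate. With older symbols matched, a change chosen after the data were seen, the insulin list had 5 of 7 genes with a peak and 277 per Mb and the actin and muscle list 10 of 29 and 56.6; apart from these and the EGF receptor list, density was as reported.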
